A study of Mus musculus with 8 samples.

Results

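The livers described here came from fasted mice that received acetaminophen (APAP) or phosphate-buffered saline (PBS), 4 of the 8 livers of the series, chosen by their treatment labels, and the description covers the whole transcriptome by gene class. The mice were wild-type C57BL/6J males of 8 to 9 weeks that had been fasted overnight. The APAP group took a single intragastric dose of 500 mg/kg, and the control group was given sterile PBS in equal volume (n = 2 livers in each group). Food was withheld for another 6 h after APAP, which the labels do not state separately for the fasted controls. Livers were collected 24 h after the dose, later than the end of the stated fast, and total RNA was sequenced. The group name fasted thus describes the mice at dosing and not the livers at collection. Food intake between the fast and collection is not given in the sources used here. The labels name no further treatment or allele, and they do not say whether the 2 livers of a group came from separate mice, so the p-values below measure the spread between these samples, which may be technical.

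APAP, a common analgesic, is harmless to the liver at ordinary doses because most of it is joined to glucuronate or sulfate and excreted. At overdose, cytochrome P450 enzymes, above all CYP2E1 in the hepatocytes around the central vein, oxidise it to a reactive quinone imine that uses up glutathione, binds proteins and injures mitochondria, and the hepatocytes around the central vein die. The hepatocyte makes most proteins of blood plasma, disposes of drugs and nitrogen, and builds glucose, cholesterol and bile acids, so its transcripts dominate a liver library. Livers of overdosed mice also draw in leukocytes and then regenerate.

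Of the 55416 annotated genes of the count table, 14794 passed the filter on low counts and were tested. The libraries held 27110041 and 22320118 counts in annotated genes after PBS and 23223445 and 25242422 after APAP, and 19201 and 19145 genes had at least 1 count after PBS against 21607 and 21853 after APAP. Principal component 1 of the log-scaled counts, which held 88.7% of the variance, separated the treatments. Levels are given in CPM, counts scaled by the adjusted size of each library, with the liver of replicate 1 before that of replicate 2, and are not divided by transcript length, so they compare livers and not genes. Differences are log2 fold changes of APAP over PBS with their standard error (SE), and a gene was called higher or lower where edgeR's quasi-likelihood test gave an adjusted p under 0.05. The count of a class is over its tested members, and a member at 0 after PBS could be tested only through its counts after APAP. Class counts are to be read against 28.6% higher and 27.5% lower over all tested genes. Class counts are followed in parentheses by the count without a given liver, with scaling by library totals, or with only genes of at least 1 CPM in each group (1 CPM filter) where that moved a count above 2 by more than 1.5-fold. The 1 CPM filter left 11707 genes in the test, so a class can have fewer tested members there than the total printed, and members it dropped are not calls lost. The adjusted p of each gene named below as higher or lower lay between 1.5e-08 and 0.0388 and is printed for the leading genes only. In whole liver, fewer cells of a type and less RNA in each cell cannot be told apart.

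APAP was followed by calls in most of the tested transcriptome. Of the 14794 genes, 4238 (28.6%) were higher after APAP and 4070 (27.5%) were lower, and the difference exceeded 2-fold for 2375 higher genes (16.1%) and 2123 lower genes (14.4%). The median log2 fold change over all tested genes was 0.04. The direction varied with the level of the gene, and genes under 1 CPM could enter the test through counts in a single group. Among the 2148 genes with a mean under 1 CPM, 27.9% were higher and 9.64% were lower, with a median log2 fold change of 0.50. Among the 121 genes at 1000 CPM or more, 26 were higher and 61 were lower, with a median of -0.43. Of the 100 genes with the most counts after PBS, 60 were lower and 11 were higher. Choosing genes by their PBS level favours lower calls in itself. Of these 100, 74 were still among the 100 with the most counts after APAP. The genes that together made up 50% of the counts numbered 113 and 137 after PBS and 130 and 153 after APAP. Scaling by library totals alone raised the median over all genes by 0.18 and moved the share of higher genes among all calls from 51.0 to 61.9%.

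**Figure D1:**
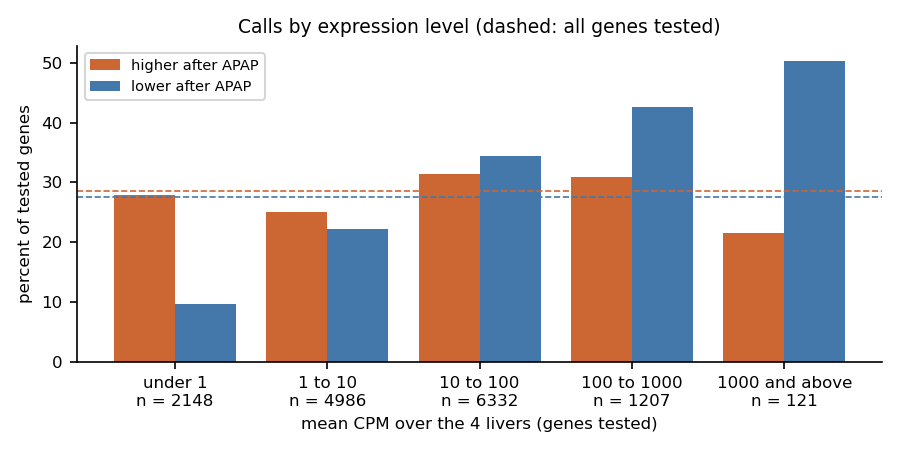
Percent of tested genes called higher and lower after APAP (vertical axis) in 5 bands of mean expression in CPM (horizontal axis), with the number of genes in each band. The share of lower calls climbs from 9.64% under 1 CPM to 50.4% at 1000 CPM or more, while the share of higher calls lies between 21.5 and 31.4%.

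Of 322 protein-coding genes with a single block of exonic sequence, 118 (36.7%) were higher and 45 (14%) were lower, against 28.4 and 29.1% of 12750 genes with several blocks. The share of higher genes ran from 25.4% on chromosome 17 to 35.6% on chromosome 18, and that of lower genes from 24.1% on chromosome 12 to 30.3% on chromosome 17. In 5 equal bins of exonic length, 27.6 to 29.3% were higher and 26.9 to 29.7% were lower.

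The largest gain in counts belonged to Apoa4, an apolipoprotein of intestine and fasting liver. Apoa4 had 89.9 and 102 CPM after PBS and 10771 and 12502 CPM after APAP (log2 fold change 6.93 ± 0.18 (SE), adjusted p = 1.5e-08). Of its exonic bases, 34.9% lie opposite the provisional gene Gm47528, and reads of such pairs cannot be told apart without strand. The 3 fibrinogen chains followed, of which Fga, the alpha chain, had 4398 and 4947 CPM after PBS and 12054 and 14357 CPM after APAP (log2 fold change 1.5 ± 0.15 (SE), adjusted p = 2.1e-05). Fgb had 4037 and 5068 CPM after PBS and 12538 and 13408 CPM after APAP (log2 fold change 1.51 ± 0.15 (SE), adjusted p = 2.4e-05). Fgg had 3586 and 4291 CPM after PBS and 10372 and 11570 CPM after APAP (log2 fold change 1.48 ± 0.15 (SE), adjusted p = 2.2e-05). Plin2, the coat protein of lipid droplets, rose from 300.1 and 435 CPM after PBS to 4048 and 4087 CPM after APAP (log2 fold change 3.47 ± 0.19). The groups did not overlap for any of these genes. Lysosomal Ctsl, the protease cathepsin L, went from 528 and 557 CPM to 2952 and 2703 CPM (log2 fold change 2.38 ± 0.13). Ldha, the lactate dehydrogenase subunit of anaerobic glycolysis, rose from 529 and 577 CPM after PBS to 2436 and 2485 CPM after APAP (log2 fold change 2.15 ± 0.13). Among the losses, Trf, the iron carrier transferrin, had 14922 and 14096 CPM after PBS and 8451 and 7129.9 CPM after APAP (log2 fold change -0.90 ± 0.14). Bhmt, which remakes methionine from homocysteine and betaine, fell from 4609.6 and 3376 CPM after PBS to 297 and 521 CPM after APAP (log2 fold change -3.29 ± 0.35). Cps1, the entry enzyme of the urea cycle, went from 3608 and 2870.5 CPM to 565 and 748 CPM (log2 fold change -2.30 ± 0.18). All 3 were lower in both APAP livers than in either PBS liver. Albumin (Alb) fell from 90356 and 77024 CPM after PBS to 67537 and 55977 CPM after APAP (log2 fold change -0.44 ± 0.16). Its adjusted p was 0.204 without PBS replicate 1 and 0.223 without APAP replicate 2, and 0.116 with library totals alone, and 0.0578 with at least 1 CPM in each group.

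**Figure D2:**
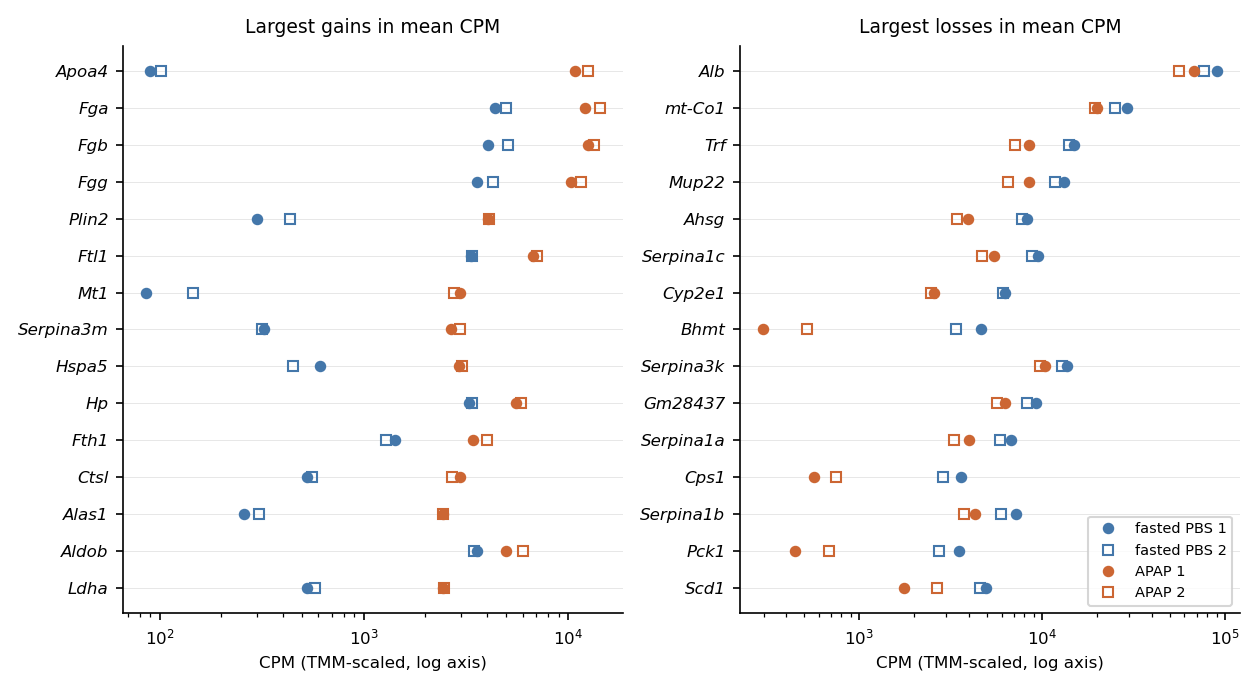
Expression in each of the 4 livers (points, CPM on a log axis) for the 15 genes with the largest gain and the 15 with the largest loss in mean CPM after APAP. Apoa4 moved farthest, from 89.9 and 102 CPM to 10771 and 12502 CPM, and among the losses Bhmt, Cps1 and Pck1 show the widest gaps between the treatments.

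Several genes went from no count to clear expression. Pdyn, which encodes the opioid peptide precursor prodynorphin, had no count in either PBS liver and 894 and 1107 counts after APAP, at least 598-fold higher when the PBS group is set at 3 counts in all (adjusted p = 6.8e-08). Abca17, a lipid transporter of the ABC family, also had no count after PBS and had 505 and 601 after APAP, at least 331-fold higher (adjusted p = 1.4e-07). Slc6a19, the neutral amino acid carrier of gut and kidney, went from none to 554 and 483 counts, at least 310.1-fold higher (adjusted p = 3.0e-07). The provisional gene Gm47117, annotated as lincRNA on chromosome 9, went from none to 2880 and 2275 counts, at least 1542-fold higher (adjusted p = 2.0e-05). The 10 steepest lower genes with a mean of at least 10 CPM included a pseudogene, noncoding RNAs and enzymes, and 3 are given here. Cyp7a1, the rate-limiting enzyme of bile acid synthesis, had 102 and 109.9 CPM after PBS and 2.83 and 3.08 CPM after APAP (log2 fold change -5.16 ± 0.13 (SE), adjusted p = 1.5e-08). Cyp2c69, a cytochrome P450, fell from 18.4 and 23.9 CPM after PBS to 0.821 and 0.698 CPM after APAP (log2 fold change -4.79 ± 0.23 (SE), adjusted p = 2.5e-07). Tmem25, a membrane protein of the immunoglobulin superfamily, went from 56.3 and 41.6 CPM to 1.31 and 2.28 CPM (log2 fold change -4.75 ± 0.27). In all 3 the lowest PBS liver was far above the highest APAP liver.

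Stress programmes of the endoplasmic reticulum (ER) split into genes that rose and genes that fell. Of 37 tested genes of the unfolded protein and integrated stress response, 17 were higher and 9 were lower, with a median log2 fold change of 0.20. When unfolded proteins pile up in the ER, the sensors IRE1, PERK and ATF6 raise chaperones and slow translation, and ATF6 acts through the ER stress response element, written CCAAT, 9 bases of any kind (N) and CCACG. The promoters of 6 listed genes that hold the element, 3 called higher and 3 called lower, are shown (Creld2 and Derl3 were chosen after their values were seen) so that the same element can be seen in genes of either direction. Each run holds the 170 bases before the RefSeq start, read 5′ to 3′ on the gene's strand, and capitals mark the element on whichever strand it was found.
Hspa5: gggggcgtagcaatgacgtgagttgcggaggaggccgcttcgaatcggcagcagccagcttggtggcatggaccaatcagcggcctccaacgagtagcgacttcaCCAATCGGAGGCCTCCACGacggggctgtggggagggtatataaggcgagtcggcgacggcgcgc
Creld2: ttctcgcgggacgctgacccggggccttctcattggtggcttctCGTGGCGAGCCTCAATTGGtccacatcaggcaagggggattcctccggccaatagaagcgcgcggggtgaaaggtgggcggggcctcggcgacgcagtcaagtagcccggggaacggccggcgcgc
Derl3: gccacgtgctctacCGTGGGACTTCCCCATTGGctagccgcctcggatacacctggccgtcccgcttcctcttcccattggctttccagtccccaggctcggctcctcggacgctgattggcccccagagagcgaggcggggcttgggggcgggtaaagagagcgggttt
Calr: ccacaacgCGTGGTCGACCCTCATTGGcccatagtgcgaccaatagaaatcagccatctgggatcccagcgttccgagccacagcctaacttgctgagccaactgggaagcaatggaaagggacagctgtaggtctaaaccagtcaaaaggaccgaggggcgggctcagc
Canx: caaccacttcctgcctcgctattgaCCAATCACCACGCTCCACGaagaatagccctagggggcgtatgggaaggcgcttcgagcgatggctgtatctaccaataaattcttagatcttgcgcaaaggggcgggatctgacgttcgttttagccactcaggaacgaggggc
Pdia6: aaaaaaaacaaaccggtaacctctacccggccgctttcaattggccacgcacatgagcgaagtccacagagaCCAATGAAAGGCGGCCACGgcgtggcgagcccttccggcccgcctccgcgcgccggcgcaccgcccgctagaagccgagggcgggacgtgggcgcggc
The coordinates of these windows in GRCm38.p6 are chr2:34771920-34772089 (plus strand) for Hspa5, chr15:88819476-88819645 (plus strand) for Creld2, chr10:75893228-75893397 (plus strand) for Derl3, chr8:84846932-84847101 (minus strand) for Calr, chr11:50325674-50325843 (minus strand) for Canx and chr12:17266419-17266588 (plus strand) for Pdia6. The element, searched on both strands of the 250 bases before each RefSeq start, was present in 35 of 27025 genes (0.130%) and in 21 of the 10918 tested genes that had a promoter (0.192%). It was found in 6 of 3093 genes called higher (0.194%) and in 4 of 3111 called lower (0.129%). In the ER stress list it was found in 10 of 32 genes (31.3%), 3 of the 14 called higher and 4 of the 9 called lower. A match describes these letters only, and binding was not measured.

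Among the genes with these promoters, Hspa5, the ER chaperone BiP, rose from 609 and 452 CPM after PBS to 2916 and 3031 CPM after APAP (log2 fold change 2.49 ± 0.16 (SE), adjusted p = 1.6e-06). Creld2, an ER protein that helps disulfide exchange, had 34.4 and 32.7 CPM after PBS and 80.1 and 119 CPM after APAP (log2 fold change 1.57 ± 0.19 (SE), adjusted p = 3.7e-04). Derl3, a channel protein of ER-associated degradation, rose from 1.18 and 1.89 CPM after PBS to 4.15 and 10.5 CPM after APAP (log2 fold change 2.26 ± 0.52). Its log2 fold change was 1.43 without APAP replicate 2. Its adjusted p was 0.179 without PBS replicate 1 and 0.107 without PBS replicate 2. Those 3 rose in both livers, whereas several folding proteins with the same element were lower. Pdia6, a disulfide isomerase, went from 307 and 336 CPM to 155 and 185 CPM (log2 fold change -0.92 ± 0.13). Canx, the membrane lectin chaperone calnexin, fell from 325 and 314 CPM after PBS to 183 and 216 CPM after APAP (log2 fold change -0.68 ± 0.12). Calr, its soluble relative calreticulin, had 865 and 837 CPM after PBS and 515 and 662 CPM after APAP (log2 fold change -0.53 ± 0.14). Its adjusted p was 0.0772 without APAP replicate 1, and 0.0716 with library totals alone. Among the other members, Dnajb9, a cochaperone of BiP, rose from 66.7 and 37.9 CPM after PBS to 412 and 356 CPM after APAP (log2 fold change 2.87 ± 0.30). Ppp1r15a, the phosphatase subunit GADD34 that restarts translation, went from 14.9 and 19.1 CPM to 108 and 82.6 CPM (log2 fold change 2.49 ± 0.17). Ern1, the sensor IRE1 itself, fell from 117 and 116 CPM after PBS to 61.5 and 50.2 CPM after APAP (log2 fold change -1.06 ± 0.12). The ER machinery for import and glycosylation did not follow the chaperones. Of its 52 tested genes, 15 (8 without PBS replicate 2 or APAP replicate 1) were higher and 15 lower, and the list's median of -0.07 turned positive when libraries were scaled by totals alone.

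Heat shock proteins and genes that defend against electrophiles had more higher than lower members. Of 72 heat shock proteins and cochaperones, 26 were higher and 12 (5 with library totals) were lower, and the whole list took 0.646 and 0.655% of the counts after PBS and 1.43 and 1.45% after APAP. Hspa8, the constitutive chaperone HSC70, had 1223 and 1101 CPM after PBS and 2716 and 2619.9 CPM after APAP (log2 fold change 1.20 ± 0.13 (SE), adjusted p = 3.5e-05). Dnajb1, its HSP40 partner, rose from 21.2 and 17.6 CPM after PBS to 345 and 221 CPM after APAP (log2 fold change 3.86 ± 0.25 (SE), adjusted p = 5.4e-05). Hspb8, a small heat shock protein that works with BAG3, went from 144 and 124 CPM to 747 and 646 CPM (log2 fold change 2.38 ± 0.14). The cytosolic chaperonin CCT and prefoldin, which fold actin and tubulin, had 7 of 14 genes higher and 2 lower. Of 39 genes of glutathione synthesis and of the oxidant-sensing factor NRF2, 20 were higher and 6 (3 with library totals or without APAP replicate 1) were lower, with a median of 0.72 and a share that went from 1.49 and 1.5% of the counts after PBS to 2.38 and 2.65% after APAP. Txnrd1, thioredoxin reductase, rose from 115 and 131 CPM after PBS to 765 and 775 CPM after APAP (log2 fold change 2.65 ± 0.13). Hmox1, which opens the heme ring, had 9.75 and 10.8 CPM after PBS and 325 and 289 CPM after APAP (log2 fold change 4.90 ± 0.14). Sqstm1, the autophagy receptor p62, rose from 358 and 369 CPM after PBS to 1609 and 1760 CPM after APAP (log2 fold change 2.21 ± 0.13). The lower members were not minor genes, and Gpx1, the selenium enzyme that reduces hydrogen peroxide with glutathione, went from 1919 and 1670.2 CPM to 1065 and 903 CPM (log2 fold change -0.87 ± 0.14).

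Genes for metals moved in both directions. Mt1, a metallothionein that binds zinc and copper, rose from 85.7 and 145 CPM after PBS to 2958 and 2765 CPM after APAP (log2 fold change 4.63 ± 0.28 (SE), adjusted p = 2.4e-05). Hamp, the iron hormone hepcidin, had 219 and 141 CPM after PBS and 1856 and 1781 CPM after APAP (log2 fold change 3.34 ± 0.22 (SE), adjusted p = 8.1e-06). The ferritin chains rose together, Ftl1 with a log2 fold change of 1.03 and Fth1 with a log2 fold change of 1.46. The iron exporter ferroportin (Slc40a1), which hepcidin protein degrades, fell from 70.7 and 111 CPM after PBS to 33.8 and 35.7 CPM after APAP (log2 fold change -1.39 ± 0.22). Slc39a14, an importer of zinc and non-transferrin iron, went from 206 and 213 CPM to 662 and 569 CPM (log2 fold change 1.55 ± 0.13). Steap3, a ferrireductase, fell from 23.3 and 22.3 CPM after PBS to 3.9 and 3.38 CPM after APAP (log2 fold change -2.65 ± 0.16). Over the list of iron handling, 8 of 24 genes were higher and 10 lower. Alas1, the rate-limiting enzyme of heme synthesis in liver, had 259.7 and 306 CPM after PBS and 2452 and 2432 CPM after APAP (log2 fold change 3.11 ± 0.14). Alas2, the erythroid form of the same enzyme, fell from 117 and 102 CPM after PBS to 39.8 and 39.3 CPM after APAP (log2 fold change -1.47 ± 0.11). Alad and Fech, the second and the last enzyme of the pathway, had a log2 fold change of -1.37 and a log2 fold change of -1.11, and 11 of the 17 genes of heme synthesis and breakdown were lower against 4 higher.

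Transcripts for plasma proteins split between carriers, which were lower, and acute phase proteins, which were higher. None of 21 albumin-like and carrier genes was higher and 15 were lower, with a median of -0.89 and a share that went from 13.2 and 12.6% of the counts after PBS to 10.8 and 9.56% after APAP. Ahsg, the calcium-binding protein fetuin-A, went from 8286 and 7773 CPM to 3932 and 3439 CPM (log2 fold change -1.12 ± 0.14 (SE), adjusted p = 8.4e-05). Igfals, which holds IGF1 in circulation, fell from 115 and 89.6 CPM after PBS to 17.5 and 12.5 CPM after APAP (log2 fold change -2.77 ± 0.20 (SE), adjusted p = 2.3e-05). Of 25 acute phase genes, 15 were higher and 4 were lower, and the group went from 2.34 and 2.8% of the counts after PBS to 6.06 and 7.03% after APAP. The list summed to 25771 and 28843 CPM after PBS and 57768 and 65138 CPM after APAP. Mean CPM rose by 8533 for Fga, 8421 for Fgb and 7033 for Fgg, so most of this gain was in the fibrinogen chains. A gene can belong to several lists, so the gain of acute phase genes and those of other lists are not independent. Lcn2, a siderophore-binding protein that hepatocytes and neutrophils make, had 18.4 and 17.9 CPM after PBS and 981 and 916 CPM after APAP (log2 fold change 5.71 ± 0.14). Crp, which responds weakly in the mouse, and Saa4, a constitutive member of its family, had a log2 fold change of -2.95 and a log2 fold change of -2.16. Hp, the hemoglobin-binding haptoglobin, rose from 3275 and 3403 CPM after PBS to 5569 and 5890 CPM after APAP (log2 fold change 0.78 ± 0.13).

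Clotting genes other than fibrinogen mostly fell. Of 40 coagulation and fibrinolysis genes, 24 were lower and 11 (4 with the 1 CPM filter) were higher. Serpind1, the thrombin inhibitor heparin cofactor II, went from 550.2 and 492 CPM to 66.3 and 51.3 CPM (log2 fold change -3.15 ± 0.15 (SE), adjusted p = 2.7e-07). F11, coagulation factor XI, fell from 133 and 106 CPM after PBS to 21.7 and 20.5 CPM after APAP (log2 fold change -2.50 ± 0.13 (SE), adjusted p = 4.5e-07). Plg, the precursor of the fibrin-splitting enzyme plasmin, had 2309.6 and 2296 CPM after PBS and 1015 and 969 CPM after APAP (log2 fold change -1.22 ± 0.12). With the fibrinogen chains included, the summed share of the list went from 2.53 and 2.91% of the counts after PBS to 4.55 and 5.12% after APAP. Complement followed, with 22 of 39 genes lower and 1 higher. C6, a component of the membrane attack complex, fell from 289 and 242 CPM after PBS to 60 and 45.4 CPM after APAP (log2 fold change -2.33 ± 0.16). C3, the hub of the cascade, went from 7029 and 7249 CPM to 4379 and 5048 CPM (log2 fold change -0.60 ± 0.14). The sole higher complement gene was the anaphylatoxin receptor C5ar1 of myeloid cells (a log2 fold change of 1.77). Its adjusted p was 0.0887 without APAP replicate 1.

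Major urinary proteins, pheromone carriers of male mouse liver that are copied in a cluster of near-identical genes, had 17 of 27 genes lower and none higher, and their share went from 6.03 and 4.93% of the counts after PBS to 4.58 and 2.89% after APAP. Reads of these copies cannot be assigned with certainty, so the summed share is firmer than any gene of the cluster. Mup22 fell from 13186 and 11757 CPM after PBS to 8450.5 and 6519 CPM after APAP (log2 fold change -0.74 ± 0.16 (SE), adjusted p = 0.00303). Apolipoproteins and lipoprotein assembly had 5 higher and 13 lower of 28. Besides Apoa4, Apoa5, which speeds the clearance of triglyceride, had 962 and 849 CPM after PBS and 1826 and 1980.1 CPM after APAP (log2 fold change 1.07 ± 0.13 (SE), adjusted p = 8.3e-05). Among serpins, 14 (6 with the 1 CPM filter) of 36 were higher and 16 lower, with Serpina3m (a log2 fold change of 3.13) among the former and the antitrypsin copies Serpina1a, Serpina1b and Serpina1c (-0.80, -0.71 and -0.85) among the latter. Both sets belong to clusters of close copies that can share reads.

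**Figure D3:**
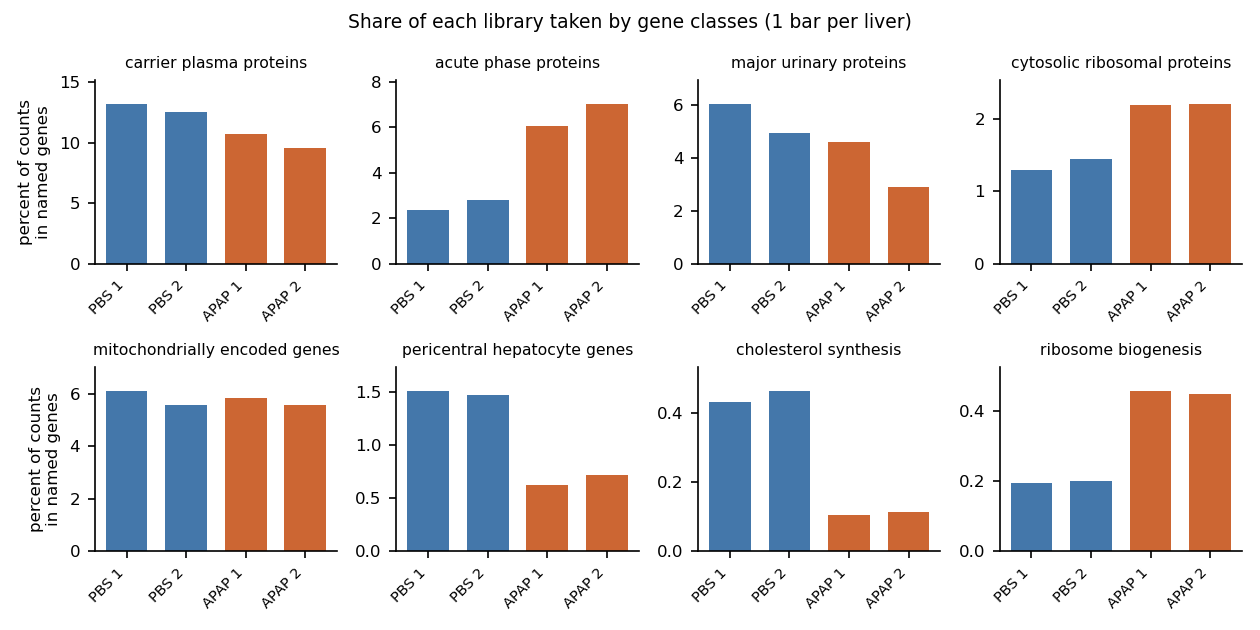
Percent of each library's counts (vertical axes, each starting at 0) taken by 8 gene classes in the 4 livers, with a bar for each liver. Acute phase proteins went from 2.34 and 2.80% after PBS to 6.06 and 7.03% after APAP, and cholesterol synthesis from 0.432 and 0.464% to 0.104 and 0.114%. Most of the acute phase gain was in the fibrinogen chains.

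Genes of drug handling were mostly lower. Of 64 cytochrome P450 genes of families 1 to 4, 37 were lower and 9 (3 with the 1 CPM filter) were higher, with a share of 2.34 and 2.31% of the counts after PBS and 1.2 and 1.45% after APAP. Cyp2e1, the main enzyme of APAP oxidation, fell from 6287 and 6097 CPM after PBS to 2579 and 2476 CPM after APAP (log2 fold change -1.29 ± 0.13 (SE), adjusted p = 2.1e-05). Cyp2c29 went from 1225 and 1269.6 CPM to 305 and 327 CPM (log2 fold change -1.98 ± 0.12 (SE), adjusted p = 1.1e-06). Cyp3a13 was among the few higher members, with 146 and 133 CPM after PBS and 203 and 209 CPM after APAP (log2 fold change 0.56 ± 0.11). The UDP glucuronosyltransferase family, some of whose members attach glucuronate to APAP and other drugs, had 16 of 17 genes lower and none higher. Its median was -1.16. Ugt3a1, which is not given here as an enzyme of APAP conjugation, fell from 98 and 95.1 CPM after PBS to 25.3 and 28.9 CPM after APAP (log2 fold change -1.83 ± 0.11). Sulfotransferases had 7 of 8 lower, among them Sult1a1 (a log2 fold change of -1.46), a phenol sulfotransferase, and Sult2a8 (a log2 fold change of -2.27). The sole higher sulfotransferase was Sult1e1, which inactivates estrogen, with 0.122 and 0.0924 CPM after PBS and 20.3 and 24.2 CPM after APAP (log2 fold change 7.62 ± 0.29).

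Glutathione S-transferases had 12 of 23 genes lower and 4 higher. Gsta3, an alpha class enzyme, had 1480.5 and 1357 CPM after PBS and 581 and 561 CPM after APAP (log2 fold change -1.31 ± 0.12 (SE), adjusted p = 1.5e-05). Gstp3 of the pi class rose from 58.6 and 59.7 CPM after PBS to 128 and 128 CPM after APAP (log2 fold change 1.12 ± 0.10 (SE), adjusted p = 1.3e-05). Carboxylesterases had 11 of 16 lower, with Ces3a at 2089 and 2042 CPM after PBS and 1011 and 754 CPM after APAP (log2 fold change -1.23 ± 0.16). Alcohol, aldehyde and aldo-keto dehydrogenases had 45 of 68 lower and 8 (5 with the 1 CPM filter) higher. Akr1c14, a hydroxysteroid dehydrogenase, went from 377 and 467 CPM to 24.4 and 27.5 CPM (log2 fold change -4.02 ± 0.15). Hsd3b5, a steroid enzyme of male mouse liver, fell from 316 and 244 CPM after PBS to 19.7 and 12.7 CPM after APAP (log2 fold change -4.11 ± 0.26). Aox3, an aldehyde oxidase, had 859 and 785 CPM after PBS and 65.3 and 57.3 CPM after APAP (log2 fold change -3.75 ± 0.14). For the enzymes named as lower, both APAP livers were below both PBS livers.

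Transporters of the blood side and the bile side were more often lower than higher. Of 30 organic ion transporters, 14 were lower and 9 were higher. Slc10a1, the bile salt uptake carrier NTCP, fell from 542 and 484 CPM after PBS to 118 and 139 CPM after APAP (log2 fold change -2.0 ± 0.13 (SE), adjusted p = 1.6e-06). Slc22a30 went from 359 and 363 CPM to 28.9 and 22.5 CPM (log2 fold change -3.81 ± 0.15 (SE), adjusted p = 8.7e-08). Slc22a5, the carnitine carrier, moved the other way, with 21.3 and 25.4 CPM after PBS and 87.7 and 102 CPM after APAP (log2 fold change 2.02 ± 0.13). Slc10a6, a carrier of sulfated steroids, rose from 0.203 and 0.185 CPM after PBS to 24.7 and 19.5 CPM after APAP (log2 fold change 6.79 ± 0.28). Of 43 ABC transporters, 22 were lower and 14 were higher. Abcb11, the bile salt export pump, had 596 and 622 CPM after PBS and 47.1 and 49.3 CPM after APAP (log2 fold change -3.66 ± 0.13). Abca8a fell from 115 and 134 CPM after PBS to 7.47 and 6.87 CPM after APAP (log2 fold change -4.12 ± 0.13). Abca1, which loads cholesterol on HDL, went from 138 and 127 CPM to 348 and 380.1 CPM (log2 fold change 1.46 ± 0.12). Abcb1a, a P-glycoprotein, rose from 1.75 and 1.48 CPM after PBS to 15.4 and 25.6 CPM after APAP (log2 fold change 3.66 ± 0.29).

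Genes of glucose production were mostly lower, and those of glycolysis went both ways. Of 30 genes of glucose production and glycogen, 18 were lower and 1 was higher, and their share fell from 0.711 and 0.667% of the counts after PBS to 0.237 and 0.278% after APAP. Pck1, the first committed enzyme of glucose production, had 3497 and 2715 CPM after PBS and 448 and 682 CPM after APAP (log2 fold change -2.46 ± 0.23 (SE), adjusted p = 1.1e-04). Slc2a2, the glucose transporter GLUT2, fell from 350.1 and 320 CPM after PBS to 25 and 26.2 CPM after APAP (log2 fold change -3.71 ± 0.12 (SE), adjusted p = 5.5e-08). Pygl, liver glycogen phosphorylase, went from 511 and 488 CPM to 84.4 and 86.2 CPM (log2 fold change -2.55 ± 0.12). Glycolysis had 12 of 28 genes higher and 8 lower. Aldoa, aldolase A, rose from 66.3 and 77 CPM after PBS to 184 and 196 CPM after APAP (log2 fold change 1.41 ± 0.12). Pklr, the liver pyruvate kinase, had 225 and 199 CPM after PBS and 33.9 and 38.2 CPM after APAP (log2 fold change -2.56 ± 0.12). Pdk4, which shuts pyruvate out of the citric acid cycle, rose from 3.86 and 5.36 CPM after PBS to 275 and 398 CPM after APAP (log2 fold change 6.19 ± 0.27). Its paralogue Pdk2 went from 107 and 86 CPM to 23.1 and 20.6 CPM (log2 fold change -2.14 ± 0.13). The citric acid cycle and pyruvate oxidation had 18 of 35 genes lower and 8 higher.

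Genes of cholesterol and fatty acid synthesis were mostly lower, and other lipid genes went both ways. Cholesterol synthesis had 25 of 26 genes lower and none higher, with a median of -2.46. Idi1, which makes the isoprenoid building block dimethylallyl pyrophosphate, fell from 259 and 238 CPM after PBS to 10.1 and 11.9 CPM after APAP (log2 fold change -4.50 ± 0.14 (SE), adjusted p = 3.9e-08). Hmgcs1, the cytosolic HMG-CoA synthase, had 404 and 435 CPM after PBS and 43.8 and 65.2 CPM after APAP (log2 fold change -2.94 ± 0.19 (SE), adjusted p = 7.5e-06). Fatty acid synthesis and elongation had 18 of 29 lower and 5 higher. Acss2, which activates acetate, fell from 263 and 262 CPM after PBS to 16.3 and 21.5 CPM after APAP (log2 fold change -3.79 ± 0.15). Insig2, an ER brake on SREBP, was among the higher genes of that list, with 149 and 176 CPM after PBS and 728 and 693 CPM after APAP (log2 fold change 2.13 ± 0.13). Fatty acid oxidation and ketone synthesis had 8 of 36 higher and 16 lower. Acot2, a mitochondrial acyl-CoA thioesterase, went from 2.52 and 3.79 CPM to 49.1 and 69.9 CPM (log2 fold change 4.25 ± 0.26). Fabp1, the fatty acid binding protein of liver, fell from 3717 and 4082 CPM after PBS to 1426 and 1470 CPM after APAP (log2 fold change -1.43 ± 0.13). Triglyceride and phospholipid synthesis had 9 of 34 higher and 13 lower, and its median of -0.09 was 0.09 under library totals alone. Sphingolipid synthesis and breakdown had 12 of 30 higher and 8 lower, with a median of 0.26. Chka, choline kinase alpha, had 20.3 and 27.2 CPM after PBS and 326 and 218 CPM after APAP (log2 fold change 3.52 ± 0.26). Lpin1, a phosphatidate phosphatase, fell from 475 and 468 CPM after PBS to 44.4 and 50.8 CPM after APAP (log2 fold change -3.31 ± 0.13).

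Bile acid synthesis and transport had 23 of 31 genes lower. Nr0b2, the nuclear receptor SHP that represses Cyp7a1, fell alongside Cyp7a1, with 37.1 and 42.3 CPM after PBS and 2.01 and 1.36 CPM after APAP (log2 fold change -4.56 ± 0.19 (SE), adjusted p = 1.2e-07). Peroxisomal genes had 30 of 55 lower and 13 higher. Uox, the urate oxidase of the peroxisome core, went from 2275 and 1966 CPM to 389 and 401 CPM (log2 fold change -2.42 ± 0.14 (SE), adjusted p = 5.7e-07). Nudt7, which splits coenzyme A, fell from 788 and 532 CPM after PBS to 108 and 104 CPM after APAP (log2 fold change -2.64 ± 0.19). Crat, carnitine acetyltransferase, had 18.3 and 29.9 CPM after PBS and 57.7 and 76.2 CPM after APAP (log2 fold change 1.48 ± 0.28).

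**Figure D4:**
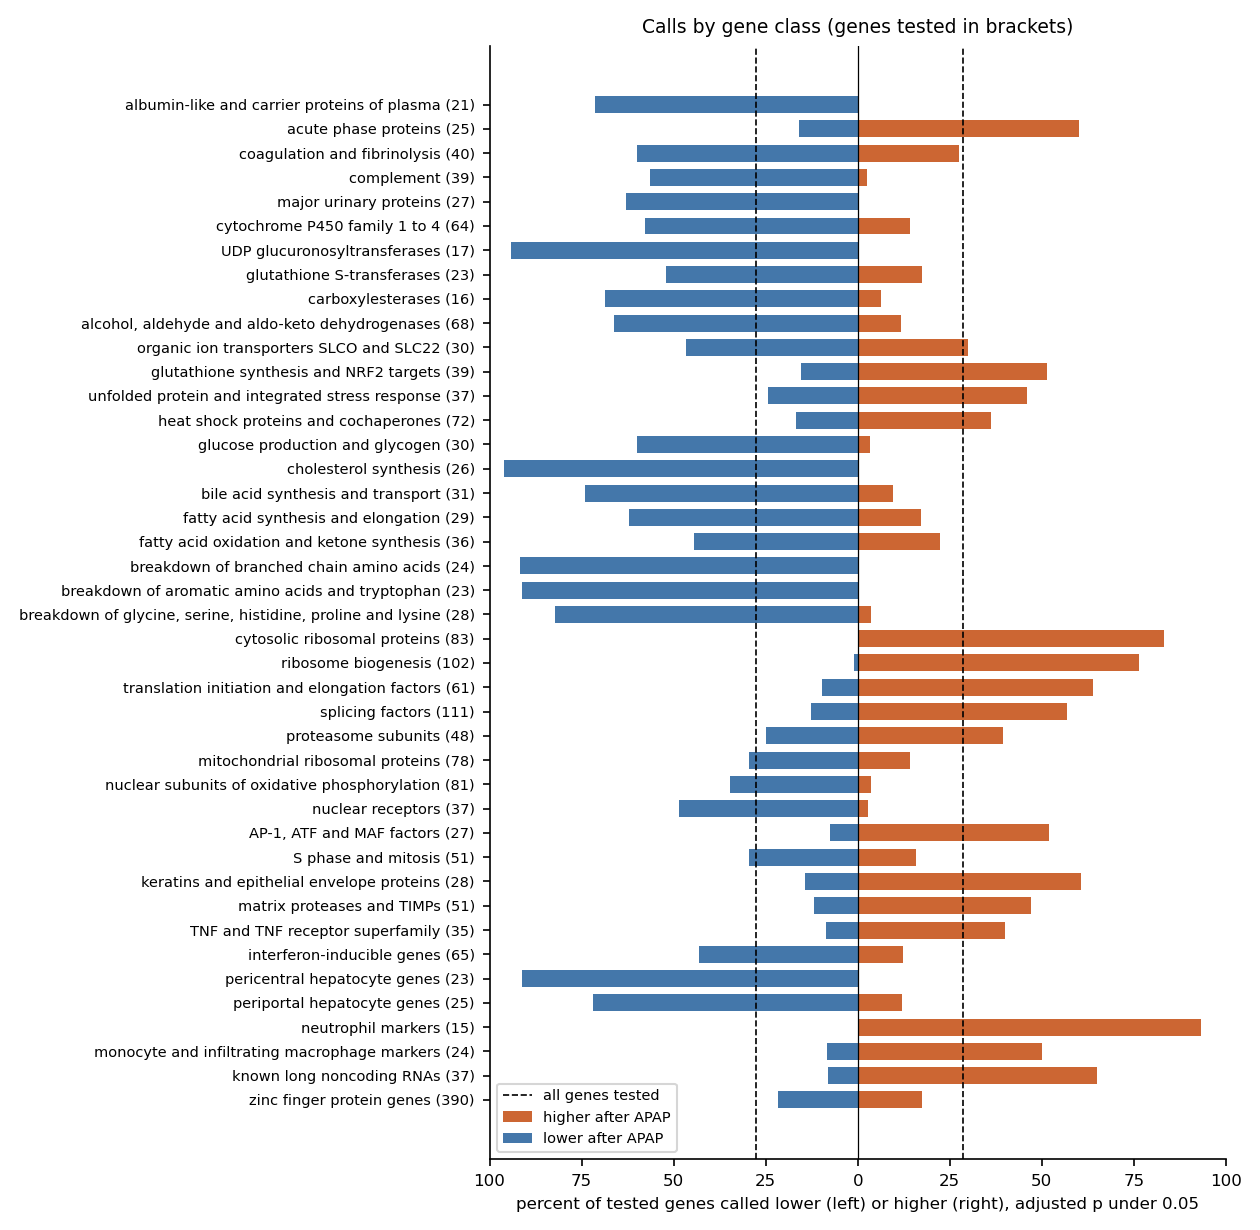
Percent of the tested genes of each class called higher (to the right) and lower (to the left) after APAP for the main classes, with the number tested in each label and the shares over all tested genes, 28.6 and 27.5%, as reference lines. Cytosolic ribosomal proteins and ribosome biogenesis stand at the higher end, and amino acid breakdown, cholesterol synthesis and pericentral genes at the lower end.

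Most genes of amino acid breakdown were lower. Branched chain amino acids had 22 of 24 genes lower, aromatic amino acids and tryptophan 21 of 23, and glycine, serine, histidine, proline and lysine 23 of 28, with 1 higher gene in the last list and none in the others. The medians were -1.02, -1.69 and -1.25. Kynu, kynureninase of the tryptophan route, fell from 218 and 186 CPM after PBS to 20.8 and 29.5 CPM after APAP (log2 fold change -3.01 ± 0.18 (SE), adjusted p = 4.1e-06). Amt, a subunit of the glycine cleavage system, went from 56.3 and 57.3 CPM to 5.96 and 8.63 CPM (log2 fold change -2.95 ± 0.17 (SE), adjusted p = 7.2e-07). The exception, Sdsl, a serine dehydratase-like protein, rose from 9.38 and 7.53 CPM after PBS to 58.6 and 50.1 CPM after APAP (log2 fold change 2.68 ± 0.15). Urea cycle and ammonia handling had 11 of 21 lower and 3 higher. Arg1, the last enzyme of the cycle, had 1144 and 905 CPM after PBS and 1826 and 1912 CPM after APAP (log2 fold change 0.87 ± 0.14). Oat, ornithine aminotransferase, fell from 1044 and 751 CPM after PBS to 136 and 176 CPM after APAP (log2 fold change -2.52 ± 0.20). Genes of the cycle thus went both ways.

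One-carbon and nucleotide genes went both ways. The methionine cycle and one-carbon list had 12 of 30 higher and 12 lower. Mat1a, the adult liver enzyme that makes S-adenosylmethionine, went from 1817 and 1621 CPM to 3084 and 3938 CPM (log2 fold change 1.03 ± 0.15 (SE), adjusted p = 3.0e-04). Mat2a, its form in fetal liver and other tissues, rose from 70.6 and 89.2 CPM after PBS to 235 and 199 CPM after APAP (log2 fold change 1.44 ± 0.14 (SE), adjusted p = 2.1e-05). Psat1, of serine synthesis, had 0.65 and 0.831 CPM after PBS and 39.9 and 28.1 CPM after APAP (log2 fold change 5.52 ± 0.25). Odc1, the first enzyme of polyamine synthesis, rose from 66.9 and 60.1 CPM after PBS to 409.6 and 432 CPM after APAP (log2 fold change 2.73 ± 0.12). Mthfd1, the cytosolic folate enzyme, went from 220.3 and 197 CPM to 28.6 and 30.3 CPM (log2 fold change -2.83 ± 0.12). Its mitochondrial relative Mthfd1l rose from 0.65 and 0.554 CPM after PBS to 4.52 and 3.05 CPM after APAP (log2 fold change 2.63 ± 0.37). Of 38 genes of purine and pyrimidine metabolism, 12 were higher and 16 lower. Ctps, CTP synthase, had 3.17 and 1.75 CPM after PBS and 36.1 and 46.5 CPM after APAP (log2 fold change 4.05 ± 0.26). Upp2, a uridine phosphorylase of liver, fell from 676 and 454 CPM after PBS to 29.8 and 21.2 CPM after APAP (log2 fold change -4.47 ± 0.28).

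Genes of ribosomes and of their assembly were mostly higher. Of 83 cytosolic ribosomal protein genes, 69 were higher and none was lower, with log2 fold changes from 0.05 to 1.93, a median of 0.55 and a share that went from 1.29 and 1.45% of the counts after PBS to 2.19 and 2.21% after APAP. Rplp0, of the ribosomal stalk, went from 468 and 486 CPM to 687 and 669 CPM (log2 fold change 0.51 ± 0.12 (SE), adjusted p = 0.00412). Rpl12 had the largest fold of the list, with 9.18 and 10.1 CPM after PBS and 36.8 and 36.7 CPM after APAP (log2 fold change 1.93 ± 0.13 (SE), adjusted p = 1.5e-06). Ribosome biogenesis had 78 of 102 genes higher and 1 lower, with a median of 0.89, and its share went from 0.196 and 0.202% of the counts after PBS to 0.458 and 0.45% after APAP. Ncl, the nucleolar protein nucleolin, rose from 139.8 and 144 CPM after PBS to 396 and 435 CPM after APAP (log2 fold change 1.55 ± 0.12). Nop56 and Nop58, core proteins of box C/D particles, had a log2 fold change of 2.66 and a log2 fold change of 2.71. Rrp12, known from yeast as an export factor of ribosomal subunits, had 4.47 and 3.23 CPM after PBS and 33 and 31 CPM after APAP (log2 fold change 3.05 ± 0.17). Polr1e of RNA polymerase I rose from 3.01 and 2.72 CPM after PBS to 9.49 and 10.2 CPM after APAP (log2 fold change 1.78 ± 0.20). Translation factors had 39 of 61 higher and 6 lower, among them Eif4a1, the cap-complex helicase (a log2 fold change of 1.69), Eif6, which keeps subunits apart (a log2 fold change of 2.33), and Eif1a (a log2 fold change of 2.15). Eef2k, the kinase that halts elongation, went from 9.1 and 7.99 CPM to 3.24 and 2.86 CPM (log2 fold change -1.48 ± 0.21). Ribosomal protein genes have many processed copies in the genome, so single genes of that list can share reads with them.

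Genes of RNA processing were more often higher than lower. Splicing factors had 63 of 111 genes higher and 14 lower. Srsf3, a splicing activator, rose from 35.6 and 33.5 CPM after PBS to 144 and 131 CPM after APAP (log2 fold change 1.99 ± 0.11 (SE), adjusted p = 5.8e-07). Rbm3, a cold-inducible RNA-binding protein, had 27.7 and 26 CPM after PBS and 215 and 227 CPM after APAP (log2 fold change 3.04 ± 0.12 (SE), adjusted p = 8.2e-08). Prpf8, the core of the spliceosome, fell from 151 and 149 CPM after PBS to 79.8 and 82.8 CPM after APAP (log2 fold change -0.88 ± 0.10). DEAD and DEAH box helicases had 25 of 50 higher and 7 lower, and nuclear pore and transport genes 22 of 49 higher and 7 (4 with library totals) lower, with Ran, the GTPase of nuclear transport, at 95.1 and 100.3 CPM after PBS and 199 and 195 CPM after APAP (log2 fold change 1.01 ± 0.11). Proteasome subunits had 19 of 48 higher and 12 lower. Psmd8 of the regulatory particle went from 109 and 90.8 CPM to 264 and 262 CPM (log2 fold change 1.40 ± 0.12). The inducible subunits Psmb8, Psmb9 and Psmb10 of the immunoproteasome were lower, with log2 fold changes of -1.10, -1.82 and -1.46.

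Mitochondrial genes showed no common direction. Mitochondrial ribosomal proteins had 11 (5 without PBS replicate 2, 4 without APAP replicate 1) of 78 higher and 23 lower, with a median of -0.17 that became 0.01 under library totals alone. Nuclear subunits of oxidative phosphorylation had 3 (10 with library totals, 5 with the 1 CPM filter) of 81 higher and 28 (11 with library totals, 18 without PBS replicate 1, 14 without APAP replicate 1) lower. Their median of -0.16 became 0.02 under library totals. Sdha, the flavoprotein of complex II, fell from 519 and 505 CPM after PBS to 228 and 250.3 CPM after APAP (log2 fold change -1.10 ± 0.12 (SE), adjusted p = 3.5e-05). The genes of mitochondrial DNA took 6.12 and 5.6% of the counts after PBS and 5.87 and 5.58% after APAP, with 2 of 15 tested genes higher and 1 lower. The lower one, mt-Co1, had 29044 and 25183 CPM after PBS and 19910 and 19448 CPM after APAP (log2 fold change -0.46 ± 0.14 (SE), adjusted p = 0.018). Its adjusted p was 0.121 without PBS replicate 1, 0.0644 without APAP replicate 1 and 0.0778 without APAP replicate 2, and 0.0731 with library totals alone. Tomm20, an import receptor of the outer membrane, rose from 48.7 and 49.9 CPM after PBS to 166 and 147 CPM after APAP (log2 fold change 1.66 ± 0.11). Slc25a51, which carries NAD into mitochondria, went from 117 and 80.4 CPM to 359 and 292 CPM (log2 fold change 1.72 ± 0.20). Slc25a23, a carrier of ATP-Mg and phosphate, fell from 246 and 217 CPM after PBS to 33.2 and 34.3 CPM after APAP (log2 fold change -2.78 ± 0.12).

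AP-1 and early response factors were more often higher than lower, and the factors and nuclear receptors that define hepatocytes more often lower. Of 27 AP-1, ATF and MAF genes, 14 were higher and 2 were lower. Fosl1, an AP-1 subunit, had no count after PBS and 246 and 324 counts after APAP, at least 170.4-fold higher (adjusted p = 7.8e-07), although 57.2% of its exonic bases lie opposite Ccdc85b, which had means of 7.92 CPM after PBS and 16.2 CPM after APAP. Maff, a small MAF factor, had 5.48 and 8.22 CPM after PBS and 278 and 190.5 CPM after APAP (log2 fold change 5.10 ± 0.30 (SE), adjusted p = 6.2e-05). Among early genes, 11 of 22 were higher and 3 lower, with Myc at 3.05 and 4.34 CPM after PBS and 39.5 and 39.1 CPM after APAP (log2 fold change 3.42 ± 0.17 (SE), adjusted p = 3.0e-07) and Btg1, an antiproliferative gene, at 34.8 and 42.4 CPM after PBS and 359.7 and 319.8 CPM after APAP (log2 fold change 3.14 ± 0.14). Krueppel-like factors had 4 of 14 higher and 4 lower, the STAT, IRF, NF-kB, SOCS and C/EBP list 12 of 39 higher and 11 lower, and forkhead, SOX, GATA, homeobox and RUNX factors 16 of 58 higher and 15 (9 without PBS replicate 1 or APAP replicate 1) lower. The shares of these lists lay near those over all tested genes. Klf6, an injury-induced factor, rose from 5.73 and 8.77 CPM after PBS to 144 and 143 CPM after APAP (log2 fold change 4.31 ± 0.19). Klf15, a fasting factor of liver, went from 270.1 and 199 CPM to 26.3 and 19.6 CPM (log2 fold change -3.36 ± 0.21). Socs3, the inhibitor that cytokines induce through STAT3, rose from 9.02 and 12.4 CPM after PBS to 105 and 83.2 CPM after APAP (log2 fold change 3.13 ± 0.18). Runx1, a blood cell factor, had 0.325 and 0.185 CPM after PBS and 17 and 13.9 CPM after APAP (log2 fold change 5.87 ± 0.30).

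Of 37 nuclear receptors, 18 were lower and 1 was higher. Nr1i3, the xenobiotic receptor CAR, fell from 266 and 260.3 CPM after PBS to 90.1 and 117 CPM after APAP (log2 fold change -1.34 ± 0.14 (SE), adjusted p = 2.8e-05). It shares 74.9% of its exonic bases with Tomm40l on the other strand. Nr1h4, the bile acid receptor FXR, went from 145 and 152 CPM to 77.3 and 77.4 CPM (log2 fold change -0.95 ± 0.10 (SE), adjusted p = 4.5e-05). Nr5a2, LRH-1, fell from 58.4 and 59.9 CPM after PBS to 19.3 and 23.6 CPM after APAP (log2 fold change -1.46 ± 0.12). Hepatocyte identity factors had 13 of 24 lower and 2 higher, with Cebpa at 271 and 249.6 CPM after PBS and 133 and 131 CPM after APAP (log2 fold change -0.98 ± 0.11). Gata6 was a higher member, with 4.14 and 3.93 CPM after PBS and 28.7 and 21.7 CPM after APAP (log2 fold change 2.64 ± 0.18). The circadian clock had 6 of 22 genes higher (27.27%) and 7 lower (31.82%), near the shares over all tested genes. Arntl (BMAL1) and Cry1 had a log2 fold change of 1.80 and a log2 fold change of 2.52, whereas the output factor Dbp had 112 and 66.3 CPM after PBS and 15.5 and 16.2 CPM after APAP (log2 fold change -2.49 ± 0.28). Zinc finger genes had 68 of 390 higher and 85 (51 with library totals) lower, close to or below the background of 28.6 and 27.5%, and their median of -0.08 became 0.10 under library totals.

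The inhibitors Cdkn1a and Gadd45a rose, and few genes of DNA synthesis or mitosis did. G1 cyclins and CDK inhibitors had 9 of 29 genes higher and 9 lower. Cdkn1a, the inhibitor p21, rose from 3.17 and 3.93 CPM after PBS to 229 and 176 CPM after APAP (log2 fold change 5.84 ± 0.19 (SE), adjusted p = 5.5e-08). Gadd45a, a stress-induced growth arrest gene, went from 2.84 and 2.26 CPM to 81.6 and 62.7 CPM (log2 fold change 4.81 ± 0.19 (SE), adjusted p = 1.0e-07). Rbl2, a pocket protein of quiescent cells, fell from 42.8 and 38.2 CPM after PBS to 14 and 14.6 CPM after APAP (log2 fold change -1.5 ± 0.12). Of 51 S phase and mitosis genes, 8 (4 without PBS replicate 1, 3 without APAP replicate 2) were higher and 15 lower, and the higher ones numbered 6 without PBS replicate 2 or APAP replicate 1. Pcna, the sliding clamp of DNA polymerase, had 24.3 and 23 CPM after PBS and 60.2 and 46.6 CPM after APAP (log2 fold change 1.17 ± 0.14). Cdt1, which licenses origins, rose from 3.29 and 3.97 CPM after PBS to 7.64 and 8.08 CPM after APAP (log2 fold change 1.12 ± 0.21). Tk1, thymidine kinase, went from 21.4 and 18.8 CPM to 5.54 and 3.97 CPM (log2 fold change -2.08 ± 0.19). Birc5, the mitotic protein survivin, fell from 1.79 and 1.71 CPM after PBS to 0.246 and 0.331 CPM after APAP (log2 fold change -2.57 ± 0.46). Of 32 p53 target genes, 11 were higher and 6 (3 without PBS replicate 1) were lower. Mdm2, the ligase that degrades p53, had 27.3 and 24.9 CPM after PBS and 84.1 and 68 CPM after APAP (log2 fold change 1.54 ± 0.13). The lower ones included Bbc3, the death protein PUMA, at 6.99 and 5.03 CPM after PBS and 2.3 and 1.84 CPM after APAP (log2 fold change -1.54 ± 0.27). DNA repair had 11 of 47 higher (23.4%) and 14 lower (29.79%), near the shares over all tested genes. Ung, which removes uracil from DNA, rose from 4.67 and 4.34 CPM after PBS to 48.8 and 47.6 CPM after APAP (log2 fold change 3.42 ± 0.13). Parp1 went from 32.5 and 32.9 CPM to 10.6 and 15.5 CPM (log2 fold change -1.32 ± 0.17). Histones had 16 (8 with the 1 CPM filter, 9 without APAP replicate 1) of 28 higher, and the replacement histone gene H3f3b rose from 141 and 134 CPM after PBS to 945 and 707 CPM after APAP (log2 fold change 2.59 ± 0.16).

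Genes of cell death were mixed. Of 48 BCL2 family, caspase and death receptor genes, 15 (31.25%) were higher and 14 (29.17%) lower, near the 28.6 and 27.5% over all tested genes. Tnfrsf12a, the receptor of TWEAK, had 4.31 and 4.62 CPM after PBS and 123 and 125 CPM after APAP (log2 fold change 4.79 ± 0.12 (SE), adjusted p = 1.5e-08). Gsdmd, the pore protein of pyroptosis, fell from 26.6 and 26.5 CPM after PBS to 6.65 and 7.82 CPM after APAP (log2 fold change -1.87 ± 0.14 (SE), adjusted p = 3.9e-06). Among autophagy genes, 12 (7 without PBS replicate 2) of 45 were higher and 19 lower, and the median of -0.15 became 0.03 under library totals. Ulk1, the kinase that starts autophagy, went from 129 and 145 CPM to 54.7 and 54.5 CPM (log2 fold change -1.33 ± 0.11). Lysosomal proteases and hydrolases had 23 (15 with library totals) of 46 lower and 8 (5 without APAP replicate 1) higher. Glb1, the lysosomal beta-galactosidase, fell from 12.3 and 13.4 CPM after PBS to 5.67 and 5.07 CPM after APAP (log2 fold change -1.26 ± 0.17). Cd63, a membrane protein of lysosomes and exosomes, had 2.48 and 4.39 CPM after PBS and 37.9 and 43.1 CPM after APAP (log2 fold change 3.57 ± 0.23).

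Keratins, integrins, matrix proteases and matrix proteins were more often higher than lower, whereas the microtubule motor and tight junction lists were not. For matrix proteins the shares were 34.85 and 22.73%, against 28.6 and 27.5% over all tested genes. Keratins and epithelial envelope proteins had 17 (4 with the 1 CPM filter) of 28 genes higher and 4 lower. Krt8, the hepatocyte keratin, rose from 197 and 208 CPM after PBS to 673 and 627 CPM after APAP (log2 fold change 1.68 ± 0.12 (SE), adjusted p = 2.4e-06). Its partner Krt18 went from 134 and 132 CPM to 313 and 317 CPM (log2 fold change 1.25 ± 0.11 (SE), adjusted p = 9.5e-06). In this list, 9 tested genes had no count in either PBS liver. Dsc2, a desmosomal cadherin, fell from 50.1 and 62.4 CPM after PBS to 13.1 and 16.9 CPM after APAP (log2 fold change -1.91 ± 0.16). Tubulins had 4 of 16 higher and 3 lower, a share of higher genes under the 28.6% over all genes, with Tubb6 at 5.73 and 5.68 CPM after PBS and 86.6 and 84.6 CPM after APAP (log2 fold change 3.91 ± 0.12). Kinesins, dyneins and microtubule proteins had 9 of 61 higher and 13 (8 with library totals, 7 without APAP replicate 1) lower, and claudins and tight junctions 10 (5 with the 1 CPM filter) of 27 higher and 10 lower. Integrins had 9 (5 without APAP replicate 2) of 25 higher and 1 lower, with Itga2, a collagen receptor subunit, at 0.244 and 0.277 CPM after PBS and 6.12 and 8.12 CPM after APAP (log2 fold change 4.75 ± 0.35). Matrix proteases and TIMPs had 24 (8 with the 1 CPM filter) of 51 higher and 6 lower. Adamts1 had 5.12 and 6.56 CPM after PBS and 76.7 and 79.1 CPM after APAP (log2 fold change 3.74 ± 0.14). Timp3, which stays bound to matrix, rose from 15.3 and 13.4 CPM after PBS to 56.4 and 48.5 CPM after APAP (log2 fold change 1.87 ± 0.13). Collagens, laminins and matrix proteins had 23 of 66 higher and 15 (9 with the 1 CPM filter) lower, with Col4a1 of basement membranes at 30.9 and 29.1 CPM after PBS and 82.3 and 69 CPM after APAP (log2 fold change 1.33 ± 0.12) and the fibrillar Col3a1 at 22.5 and 30.4 CPM after PBS and 9.36 and 10.7 CPM after APAP (log2 fold change -1.40 ± 0.17). Thbs1, thrombospondin 1, went from 0.284 and 0.6 CPM to 16.4 and 9.4 CPM (log2 fold change 4.87 ± 0.42).

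Growth signals changed on the ligand and the receptor side. The TGF beta, BMP and activin family had 23 of 49 higher and 6 lower. Gdf15, a stress hormone, rose from 27.6 and 34.6 CPM after PBS to 79 and 53.2 CPM after APAP (log2 fold change 1.09 ± 0.21 (SE), adjusted p = 0.00616). Gdf3 had no count after PBS and 190 and 195 counts after APAP, at least 115-fold higher (adjusted p = 1.8e-06). Hbegf, a ligand of the EGF receptor, had 0.203 and 0.277 CPM after PBS and 4.15 and 3.42 CPM after APAP (log2 fold change 3.96 ± 0.40 (SE), adjusted p = 2.6e-05). Erbb3, a receptor of that family, fell from 161 and 189.6 CPM after PBS to 32.2 and 51.3 CPM after APAP (log2 fold change -2.07 ± 0.24). Hgf, the mitogen of hepatocytes, went from 8.08 and 12.5 CPM to 22 and 20.5 CPM (log2 fold change 1.05 ± 0.20). Angpt2, a vessel-remodelling factor, rose from 0.487 and 0.508 CPM after PBS to 7.47 and 11.5 CPM after APAP (log2 fold change 4.24 ± 0.33). Dusp5, a phosphatase of nuclear ERK, had 0.569 and 0.693 CPM after PBS and 33.9 and 33.5 CPM after APAP (log2 fold change 5.73 ± 0.19). Prlr, the prolactin receptor, fell from 126 and 111 CPM after PBS to 27.1 and 27 CPM after APAP (log2 fold change -2.14 ± 0.11). Deptor, an inhibitor of mTOR, went from 203 and 206 CPM to 23.5 and 26.6 CPM (log2 fold change -3.03 ± 0.12). Wnt and R-spondin signalling had 9 (4 without APAP replicate 2) of 35 higher and 7 lower, with a median of 0.12. Fzd8, a Wnt receptor, rose from 11.9 and 6.65 CPM after PBS to 32.7 and 26 CPM after APAP (log2 fold change 1.65 ± 0.29). Rnf43, a ligase that removes Wnt receptors, had 16.7 and 14.3 CPM after PBS and 6.45 and 5.8 CPM after APAP (log2 fold change -1.34 ± 0.16). Lgr5, the R-spondin receptor of pericentral hepatocytes, fell from 5.93 and 5.54 CPM after PBS to 0.452 and 0.514 CPM after APAP (log2 fold change -3.55 ± 0.32).

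Genes of cytokines and their receptors were more often higher than lower, and interferon-inducible and antigen presentation genes more often lower than higher. Of 49 interleukins and receptors, 21 (10 with the 1 CPM filter) were higher and 8 lower. Of 35 genes of the TNF and TNF receptor list, 14 (8 with the 1 CPM filter) were higher and 3 lower. That list also holds TNF-induced genes such as Tnfaip6 and the adapter Traf4, and 3 of its tested genes had no count in either PBS liver. Csf2rb2, a beta chain of the mouse IL-3 receptor, went from 0.447 and 0.97 CPM to 44.4 and 43.3 CPM (log2 fold change 5.97 ± 0.23 (SE), adjusted p = 8.6e-08). Il6ra, the receptor of IL-6, fell from 83.9 and 98.7 CPM after PBS to 40.4 and 33.7 CPM after APAP (log2 fold change -1.30 ± 0.13 (SE), adjusted p = 2.1e-05). Chemokines and receptors had 12 (4 with the 1 CPM filter) of 32 higher and 5 lower, with Cxcl10 at 2.4 and 1.52 CPM after PBS and 29.8 and 17.8 CPM after APAP (log2 fold change 3.58 ± 0.34) and Ccl9 at 58.3 and 50.1 CPM after PBS and 16.6 and 12.2 CPM after APAP (log2 fold change -1.92 ± 0.16). Interferon-inducible genes had 28 of 65 lower and 8 (4 with the 1 CPM filter, 5 without PBS replicate 1) higher. Ifitm3, a restriction factor of viral entry, had 312 and 334 CPM after PBS and 151 and 157 CPM after APAP (log2 fold change -1.07 ± 0.11). Ifi47, an interferon gamma GTPase, fell from 18.3 and 21.3 CPM after PBS to 4.07 and 3.38 CPM after APAP (log2 fold change -2.41 ± 0.18). MHC and antigen presentation had 15 of 40 lower and 6 higher, with B2m, the light chain of class I, at 1458 and 1369.5 CPM after PBS and 778 and 761 CPM after APAP (log2 fold change -0.88 ± 0.12). H2-D1, a class I heavy chain with close copies that can share reads, went from 491 and 577 CPM to 817 and 780.3 CPM (log2 fold change 0.58 ± 0.13). Cd14, the endotoxin coreceptor, rose from 0.894 and 1.66 CPM after PBS to 24.7 and 33.6 CPM after APAP (log2 fold change 4.53 ± 0.28). Nlrp6, an inflammasome sensor, had 292 and 261 CPM after PBS and 47.3 and 33.1 CPM after APAP (log2 fold change -2.79 ± 0.18).

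The tissue was checked against marker lists of its cell types. Hepatocyte markers dominated all 4 libraries, with a summed level of 180425 and 160597 CPM after PBS and 131192 and 115367 CPM after APAP, and 15 of 19 were lower and 1 higher. Pericentral hepatocyte genes had 21 of 23 lower and none higher, with a median of -1.59 and a sum of 16558 and 15158 CPM after PBS against 5898 and 6602 CPM after APAP. Periportal genes had 18 of 25 lower and 3 higher, with a median of -0.77. Glul, glutamine synthetase of the innermost pericentral cells, fell from 929 and 1012 CPM after PBS to 335 and 402 CPM after APAP (log2 fold change -1.40 ± 0.14 (SE), adjusted p = 1.9e-05). Cyp2f2, a periportal cytochrome P450, went from 1265 and 1009 CPM to 164 and 171 CPM (log2 fold change -2.76 ± 0.15 (SE), adjusted p = 4.5e-07). Both zones thus had members that lost several fold, and whether their medians differ was not tested.

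Of 26 listed neutrophil markers, 15 were tested, and 3 of those had no count in either PBS liver. Neutrophil markers had 14 (3 with the 1 CPM filter) of 15 higher and none lower. They summed to 220 and 219 CPM after PBS and 1210 and 1161 CPM after APAP, of which Lcn2 alone held 81.1 and 78.9% after APAP. Without genes that other lists also hold, the sum was 198 and 198 CPM after PBS and 204 and 219 CPM after APAP. Among defining neutrophil genes, S100a9 rose from 0.406 and 0.785 CPM after PBS to 9.45 and 9.51 CPM after APAP (log2 fold change 4.0 ± 0.31 (SE), adjusted p = 4.0e-06). Ly6g had 0 and 0 counts after PBS and 5 and 0 after APAP, and Mpo had none. The part of hepatocytes and of neutrophils in the level of Lcn2 was not tested. Monocyte and infiltrating macrophage markers had 12 (2 with the 1 CPM filter) of 24 higher and 2 lower. The list summed to 1827 and 1853 CPM after PBS and 1374 and 1411 CPM after APAP, most of it Fn1. Members in no other list summed to 25.4 and 35.1 CPM after PBS and 43.9 and 48.8 CPM after APAP. Lgals3, galectin 3, had 1.34 and 1.75 CPM after PBS and 8.34 and 9.88 CPM after APAP (log2 fold change 2.56 ± 0.25 (SE), adjusted p = 1.7e-05). Kupffer cell markers had 4 of 22 higher and 4 (12 without PBS replicate 1) lower. The lower members were Nr1h3, Slc40a1, Adgre1 and Timd4, and the higher were Id3, Cdh5, Clec1b and Spic. The median of the list was -0.47. It was -1.015 for the 10 tested members in no other list, of which 2 were higher and 2 lower. The defining gene Clec4f had 30.1 and 68.3 CPM after PBS and 17.7 and 11.5 CPM after APAP. It did not pass the test (log2 fold change -1.76, adjusted p = 0.111), and its levels in the PBS livers differed by more than 2-fold. DESeq2 called it lower (adjusted p = 0.012). Without PBS replicate 1 it was called lower, at a log2 fold change of -2.25 (adjusted p = 0.00067), and without PBS replicate 2 at -1.10 (adjusted p = 0.0093).

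Markers of the other cell types went both ways. Sinusoidal endothelial markers summed to 542 and 561 CPM after PBS and 551 and 542 CPM after APAP, with 8 of 30 higher and 7 (4 with library totals) lower, and their median of 0.00 was 0.19 under library totals and -0.01 with RLE size factors. Lyve1, a hyaluronan receptor, rose from 3.74 and 4.76 CPM after PBS to 32.1 and 32.2 CPM after APAP (log2 fold change 2.92 ± 0.16 (SE), adjusted p = 4.7e-07). Dnase1l3 went from 38.1 and 37.4 CPM to 15.1 and 15 CPM (log2 fold change -1.33 ± 0.12 (SE), adjusted p = 8.7e-06). Stellate and fibroblast markers had 10 of 28 higher and 5 lower, with Pdgfra at 3.05 and 3 CPM after PBS and 13.5 and 11.7 CPM after APAP (log2 fold change 2.06 ± 0.19). Lrat, which stores vitamin A in quiescent stellate cells, fell from 9.59 and 11.7 CPM after PBS to 3.53 and 4.3 CPM after APAP (log2 fold change -1.44 ± 0.20). Erythroid and platelet markers had 7 of 15 higher and 3 lower, among them Alas2 and Car1 at log2 fold changes of -1.47 and -1.25, with the globin Hbb-bs at 77 and 72.5 CPM after PBS and 181 and 148 CPM after APAP (log2 fold change 1.14 ± 0.13). Lymphocyte markers had 1 of 12 higher and 1 lower. The higher one, the B cell gene Ighm, had 4.26 and 3.97 CPM after PBS and 16.1 and 15.1 CPM after APAP (log2 fold change 1.91 ± 0.17). The cholangiocyte keratins Krt7 and Krt19 and the adhesion gene Epcam lay between 0.493 and 2.01 CPM in all livers and were not called. Mpo, Prss1 and Ins2, which mark neutrophils and pancreas, had no count in any liver.

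**Figure D5:**
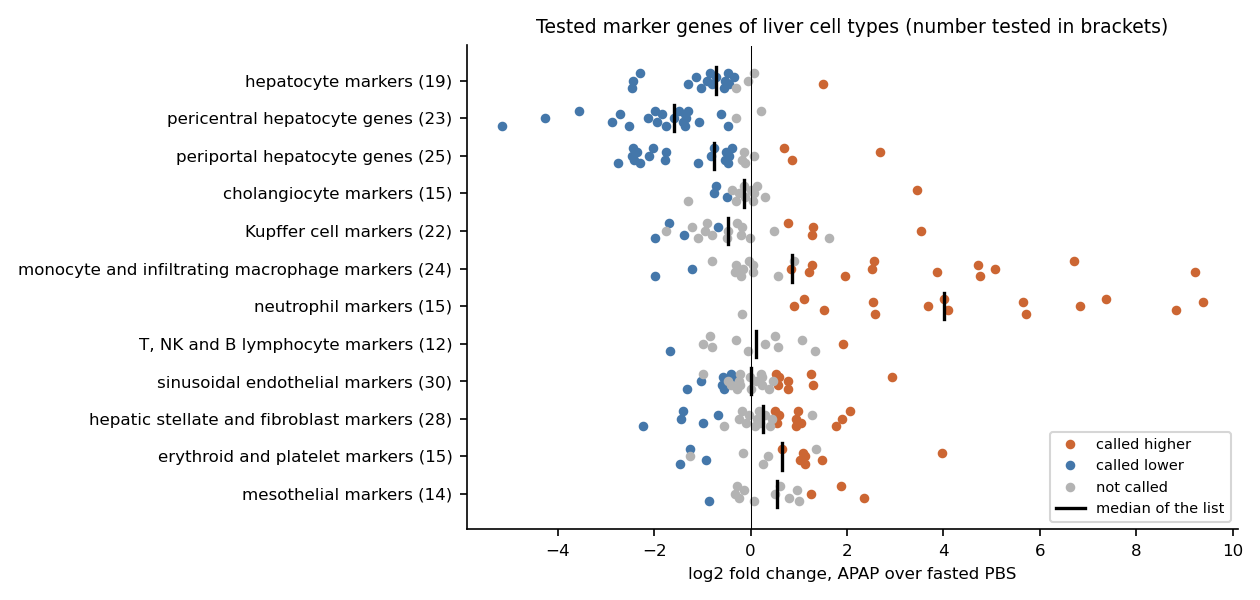
Log2 fold change of APAP over fasted PBS (horizontal axis) for each tested marker gene (points) of 12 cell type lists (rows, number tested in brackets), with calls in colour and the median of each list as a bar. Pericentral hepatocyte genes lie to the left, with a median of -1.59. Neutrophil markers lie to the right, with 14 of 15 called higher. Those 15 were the tested ones of 26 listed, and 3 of them had no count after PBS.

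Noncoding and provisional genes had more higher than lower calls, with shares of higher genes near the 28.6% over all genes. Of 993 tested long noncoding RNA genes, 304 (30.6%) were higher and 206 (20.7%) lower, and of 395 pseudogenes 103 (26.1%) were higher and 65 (16.5%) lower. The share of pseudogenes in the counts went from 3.07 and 2.82% after PBS to 2.68 and 2.58% after APAP. Of 37 long noncoding RNAs with established names, 24 were higher and 3 lower, with a median of 1.38. Neat1, the scaffold of nuclear paraspeckles, rose from 249 and 150.4 CPM after PBS to 1051 and 886 CPM after APAP (log2 fold change 2.28 ± 0.26 (SE), adjusted p = 6.3e-04). Gas5, a host of small nucleolar RNAs, went from 53.8 and 45.7 CPM to 178 and 173 CPM (log2 fold change 1.82 ± 0.12 (SE), adjusted p = 1.5e-06). Firre, a nuclear RNA transcribed from the X chromosome, fell from 55.3 and 53.2 CPM after PBS to 29 and 29.9 CPM after APAP (log2 fold change -0.88 ± 0.10). Mir17hg, the long host transcript of the miR-17-92 cluster, had 2.84 and 2.12 CPM after PBS and 17.4 and 22.5 CPM after APAP (log2 fold change 3.0 ± 0.21). Provisional gene models had 343 (113 with the 1 CPM filter) of 1271 higher and 230 (108 with the 1 CPM filter) lower, and 242 to 347 were higher when 1 liver was left out. Their share went from 3.47 and 3.2% of the counts after PBS to 3.14 and 3.01% after APAP. Rapgef4os1, annotated as antisense, fell from 19.7 and 20.7 CPM after PBS to 0.37 and 0.624 CPM after APAP (log2 fold change -5.31 ± 0.24). Of 63 olfactory and vomeronasal receptor genes, 10 (2 with the 1 CPM filter) were higher and 4 (2 with the 1 CPM filter) lower, all at low counts.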

How the data were processed

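Total RNA of whole liver was sequenced. The authors deposited gene-level estimated counts for the fasted livers, not normalised and partly fractional (27.0 to 29.7% of the values above 0). The submitters' processing notes name Trim Galore, HISAT2, featureCounts and GRCm38 (mm10), without versions. The tool behind the fractional values and the strand setting of the counting are not given in the sources used here, so reads of overlapping genes on opposite strands cannot be told apart, nor can those of near-identical copies. The files hold no columns of the authors' own comparisons.

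Estimated counts were rounded to whole numbers, and 548 assembled loci that name no gene (0.457 to 2.46% of the counts of a library) were left out of totals and tests. A filter at its standard settings (filterByExpr, at least 10 counts in enough livers and 15 in all) chose the genes, and edgeR 4.0.16 in R 4.3.3 tested them with its robust quasi-likelihood fit on TMM factors of 0.909 to 1.08, with Benjamini-Hochberg adjustment over all genes tested. DESeq2 1.42.0 was an alternative. Two-sided p-values rest on 2 livers in each group. Each liver was counted as 1 replicate. Livers of a group differed by more than sampling noise (chi-square per degree of freedom 21.4 and 34.2), which cannot tell whether they came from separate mice. Folds against a PBS group at 0 were computed with a floor of 3 counts over the group and cover counting error only. Symbols and gene types came from GENCODE M21, which held 52135 of the 55416 gene identifiers, and promoters from RefSeq on GRCm38.p6. Levels are in CPM per library, and sums and shares of a class are over all its members in the table, tested or not.

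The gene classes and the genes named were chosen with earlier results of these data known. Named genes were the 15 with the largest gain and the 15 with the largest loss in mean CPM, the steepest called genes with a mean of at least 10 CPM, the called genes of each class with the highest mean or the largest fold, and the defining members of cell type lists. Results of some genes are not reported here.

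The replicate numbers of the labels were not taken to pair the livers, since there are 2 pairs and the deviations of same-numbered livers correlated at 0.0707 across genes.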

Additional observations from a re-analysis of the deposited data

Results flagged for a closer look

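The fasted count table also holds 548 assembled loci that name no gene and that entered no comparison. They took 2.43 and 2.46% of the counts after APAP, against 0.457 and 0.498% after PBS, so both APAP livers lay above both control livers. Of these loci, 317 were higher in both APAP livers than in either PBS liver and 95 were lower in both. A group of 127 had no count in either PBS liver, and 94 of those had a count after APAP. The sources used here give no positions for the loci, and what they contain was not tested.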

How the results depend on the processing

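Beside the 4238 higher and 4070 lower genes of the comparison, DESeq2 called 3596 and 3673, RLE size factors gave 4183 and 4129, library totals alone 5150 and 3166, no filter on low counts 4581 and 4331, and a minimum of 1 CPM in each group 3420 and 3479. Fits without robust estimation, without rounding and with assembled loci in the library totals gave 4192 and 4034, 4236 and 4071, and 4240 and 4067. Leaving out 1 liver at a time gave 3374 to 3621 higher and 3401 to 3793 lower genes, with the lone liver of a group assumed to vary like the other group. With the replicate number as a block, a fit that the labels do not ask for, the counts were 4175 and 4027, and it changed no call of a gene named in the text. No gene called in the main fit was called in the opposite direction under any of these settings. Library totals kept 77.7% of the lower calls and lifted the share of higher genes among calls to 61.9%.

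Of 222 genes with values in the text, 216 kept their side of the threshold under each of the 13 alternatives that tested them. The exceptions were Alb, Calr, C5ar1, Derl3, mt-Co1 and Clec4f, whose values stand in the report. Without robust estimation Clec4f passed (adjusted p = 0.0045). Among 184 class counts, 112 of 2392 values moved by more than 1.5-fold. With DESeq2, 6 mitochondrial ribosomal protein genes and 3 S phase and mitosis genes were higher, and 8 Kupffer cell markers were lower, against 10 without a filter and 9 without robust estimation. Without a filter, 517 provisional gene models and 20 olfactory receptors were higher. Class counts of 2 or fewer moved by 1 or 2 genes. The causes were not tested. Genes under 1 CPM had the least depth behind their values.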
